A study of Arabidopsis thaliana and Zea mays with 36 samples.

Results

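The 65 maize genes described here had less linear RNA at each step of a graded drought, going by group means, in leaves of the inbred line B73. They were chosen from 39469 genes by their measured level. TPM (a transcript's share of all transcripts in its library, corrected for length and scaled to a fixed total) was summed over the transcripts of a gene and averaged over both libraries of a group. The log2(mean TPM + 1) then had to drop by 0.7 or more from well-watered plants to drought level DT2, from DT2 to DT3 and from DT3 to DT4. The same rule with the sign turned finds 229 genes. Levels and changes of the member genes in linear RNA are therefore a description of what was chosen. Counts of calls in the fit over all genes are given once for them, beside the share over all genes, and support nothing.

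The study sequenced linear RNA and circular RNA in leaves of maize and Arabidopsis under graded water supply. In maize, the groups used here were a well-watered group (WW) and the drought levels DT2, DT3 and DT4, with 2 libraries each in each assay. All were B73 plants grown in soil, rationed for water from 16 days after planting and sampled at the V4 stage, each RNA coming from a pool of the third leaf of 2 or more plants. Libraries of linear RNA came from undigested RNA. Libraries of circular RNA (circRNA) came from the same RNA samples after digestion with RNase R, an enzyme that degrades linear RNA. The sources used here give no soil moisture for these levels, and results from 1 inbred line need not hold in another. P-values here set a change against the spread between such pools, 2 a group, which the series text calls biological replicates. That spread was estimated over the groups together and in part shared across genes or circRNAs, so it is not that of the compared groups alone.

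Leaves that lose water close their stomata, stop growing and cut back their photosynthesis, and many transcripts of growth and carbon gain are known to decline as those of protective proteins build up. Plant circRNAs arise when the end of an exon is joined back to an upstream start, and the closed molecule resists the enzymes that degrade linear RNA from its ends. The files pair maize IDs with no gene name. The member genes are therefore given by ID, with no role, and the leaf markers planned as a check of the tissue were not read. In pooled leaf tissue, fewer cells of a type and less RNA per cell cannot be told apart.

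Summed by library, the 65 genes came to 19423 and 22264.0 TPM in WW. Their sum was 10117 and 11489 TPM at DT2, 4605 and 6821 TPM at DT3, and 1789.5 and 1183 TPM at DT4. The sums did not overlap between any neighbouring groups. One gene held a large part of them, and without it the sum was 9935 and 10856 TPM in WW, 3987 and 5439 TPM at DT2, 1388 and 2631 TPM at DT3, and 312 and 228 TPM at DT4.

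The member genes covered a wide range of levels. Their mean TPM in WW ran from 6.87 to 10448 with a median of 69.2, against a median of 17.4 over the 16353 tested genes that could meet the rule at all, since 3 such steps need a WW level of 3.29 TPM. Of the 65 genes 24 had at least 100 TPM in WW and 12 had under 20 TPM. The median member kept 50.04% of its WW level at DT2, 18.1% at DT3 and 1.97% at DT4. At DT4 the gene that kept most stood at 13.3% of WW, and 30 genes were under 1 TPM in both libraries. Only 5 genes had at least 10 TPM in both DT4 libraries.

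**Figure D1:**
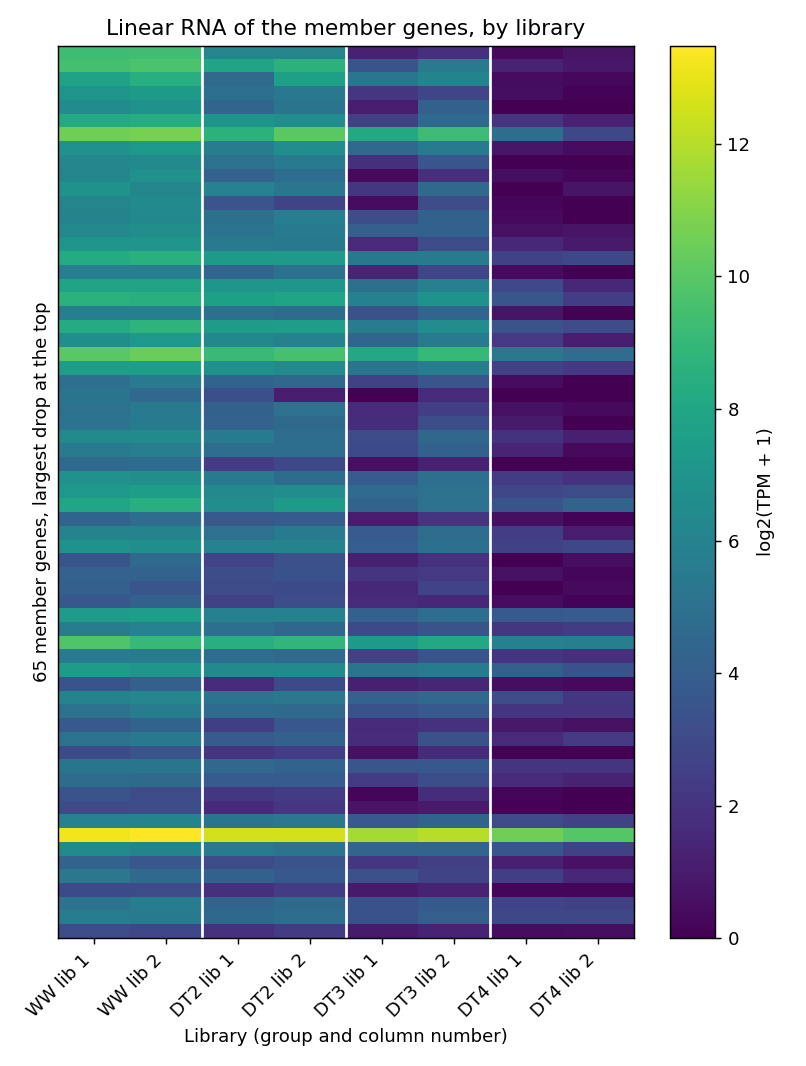
Level of each of the 65 member genes, as log2(TPM + 1) by colour, in the 8 maize linear libraries, with the groups in order of drought from left to right and the genes ordered by their drop from WW to DT4. All 65 rows are darker at DT4 than in WW, DT3 library 1 is darker than DT3 library 2 in 63 of 65 rows, and the brightest row is GRMZM2G046284 with 9487 and 11408 TPM in WW.

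The largest drop was that of GRMZM2G070011. It had 634 and 657 TPM in WW, 70.6 and 69.0 TPM at DT2, 1.39 and 2.66 TPM at DT3, and 0.29 and 0.65 TPM at DT4. No 2 neighbouring groups overlapped, and most of the loss was over by DT3, where 0.314% of the WW level was left. The fitted log2 change was -3.19 from WW to DT2, -4.58 from DT2 to DT3 and -1.02 from DT3 to DT4 (SE 0.22 each, from the mean of log2(TPM + 1)). By the rule's measure it made both the largest first step and the largest second step of all members.

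The next largest drop, of GRMZM2G136857, had another course. Its level was 723 and 823 TPM in WW, 233 and 397 TPM at DT2, 10.4 and 44.3 TPM at DT3, and 1.46 and 0.83 TPM at DT4. The libraries of DT3 differed more than 4-fold, yet both lay under both DT2 libraries and above both DT4 libraries. Its fitted changes were -1.34, -3.75 and -3.42 for the 3 steps in order (SE 0.55 each), so that the later steps were the large ones.

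The most abundant member was GRMZM2G046284, which had 9487 and 11408 TPM in WW. Its level was 6130.1 and 6050.35 TPM at DT2, 3218 and 4190.0 TPM at DT3, and 1477 and 955 TPM at DT4. The groups did not overlap. The fitted change from WW to DT4 was -3.13 (SE 0.34), and by total drop it ranked 58 of the 65. It still led them at DT4, with 11.6% of its WW level.

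GRMZM2G104549 was next in abundance and lies near the edge of the rule. It had 1517 and 1651 TPM in WW, 407 and 1059 TPM at DT2, 286 and 614 TPM at DT3, and 27.9 and 6.58 TPM at DT4. The DT2 and DT3 libraries overlapped, since 1 DT3 library lay above the lower DT2 library. Its fitted steps were -1.27, -0.65 and -4.83 (SE 0.66 each), and its total drop by the rule's measure ran from -7.71 to -5.78 when 1 WW or DT4 library was left out.

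Both DT4 libraries listed 4 of the member genes at 0, and these were picked out after their values were seen. GRMZM2G348863 had 89.1 and 122 TPM in WW, 19.9 and 35.5 TPM at DT2, and 1.08 and 16.9 TPM at DT3. GRMZM2G043493 had 75.03 and 85.7 TPM in WW, 32.3 and 44.4 TPM at DT2, and 2.65 and 11.3 TPM at DT3. GRMZM2G031167 started lower, with 23.5 and 25.1 TPM in WW, 4.13 and 6.65 TPM at DT2, and 0.48 and 1.33 TPM at DT3. In each of these 3 genes the 4 groups did not overlap. The remaining one had 35.4 and 23.1 TPM in WW and was already at 0 in 1 DT3 library. A further 11 members were at 0 in 1 of the DT4 libraries, and as TPM keep no sequencing depth, a listed 0 sets no upper limit.

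The 3 steps were not alike in size across the member genes. On the rule's scale the median first step was -0.94, the median second step -1.23 and the median last step -1.69. Over all 22216 genes tested the medians were 0.14, 0.13 and -0.02, so the median gene moved little and slightly upwards at the first 2 steps. The last step was the largest in 39 members, the middle step in 18 and the first in 8, and in 31 members each step was larger than the one before. With 1 added to each level, a step that ends near 0 TPM is compressed, and 30 members were under 1 TPM in both DT4 libraries. Which step ranks as the largest therefore depends on the scale. One of the 8 genes, picked by value, had means of 76.3, 8.22, 3.905 and 0.09 TPM from WW to DT4. The deepest single step of any member was the last step of GRMZM2G429955, by -5.39. That gene, named here after its values were seen, had 215 and 358 TPM in WW, 24.5 and 199 TPM at DT2, 38.1 and 67.9 TPM at DT3, and 0.34 and 0.24 TPM at DT4. Its DT2 and DT3 libraries overlapped.

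Grouped by their largest step, the members differed in their median WW level, while their medians at DT4 lay close together. The 39 genes with the largest step last kept a median of 53.4% of WW at DT2 and 23.2% at DT3, then 2.00% at DT4, and their median WW level was 90.1 TPM. The 18 genes with the largest step in the middle stood at medians of 45.7%, 10.7% and 1.37%, from 49.9 TPM in WW. The 8 genes with the largest step first stood at 33.8%, 10.3% and 1.45%, from 30.8 TPM. At DT4 the ranges overlapped, at 0% to 12.2%, 0.0728% to 9.98% and 0% to 13.3% of WW in the same order. On a scale with 1 added, a low level leaves less room for a large last step. These groups of members were formed from the same values and get no test.

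**Figure D2:**
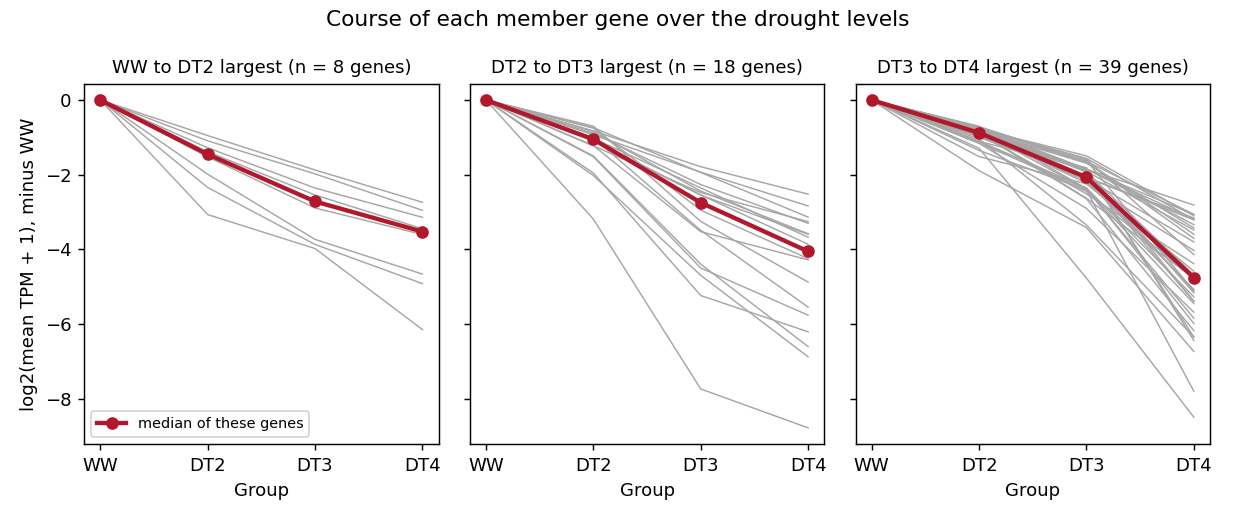
Change of each member gene (grey lines) in log2(mean TPM + 1) from its WW value at DT2, DT3 and DT4, in panels by the step at which the gene dropped most; the red line is the median of the panel's genes. The panels hold 8, 18 and 39 genes from left to right, all lines descend at each step as the rule asks, and the lowest line is that of GRMZM2G070011 in the middle panel.

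Some genes lay close to the threshold on either side. The members just inside were GRMZM5G845736, whose weakest step was -0.70, at -0.700045, and GRMZM2G104549, at -0.703549. Just outside were GRMZM2G028413, whose weakest step was -0.693721, and GRMZM2G056093, at -0.689079. GRMZM5G845736 had 16.92 and 31.74 TPM at DT2, against 31.71 and 48.59 TPM in WW. Its libraries of these groups overlapped, since the higher DT2 library lay just above the lower WW library. GRMZM2G056093 had 214 and 162 TPM in WW, 157 and 75.7 TPM at DT2, 37.6 and 53.9 TPM at DT3, and 22.1 and 8.55 TPM at DT4. Among tested genes, 690 made 2 of the 3 steps. Of these, 488 missed the first step, 106 the middle one and 96 the last, so the first step was the one most often missed. All 65 members are among the 127 genes that meet the rule once libraries are rescaled by a trimmed mean over genes, which takes out the shift of the median gene. Levels were divided by 0.897 and 0.857 in WW, 1.01 and 0.949 at DT2, and 1.03 to 1.12 at DT3 and DT4. This deepens the first 2 steps in general, so that all 65 stayed was largely set beforehand.

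Libraries of neighbouring groups were separate in most members. Both DT2 libraries lay under both WW libraries in 64 of 65 member genes, as in 13% of tested genes. The same held for DT3 under DT2 in 60 members (18.8% of tested genes), for DT4 under DT3 in 60 (35.9%) and for DT4 under WW in all 65 (27.2%). At all 3 steps at once it held in 55 members, against 3.46% of tested genes. The fit over all genes called 7 members lower at DT2 than in WW (limma, Benjamini-Hochberg), where it called 0.221% of tested genes lower. It called 24 lower at DT3 than at DT2 (1.26% of tested genes), 53 lower at DT4 than at DT3 (19.6%) and all 65 lower at DT4 than in WW (18.5%). The rule used these same contrasts and libraries, and nothing is read from the counts. Leaving out 1 library moved the counts at each of the 3 steps, in the members as over all tested genes.

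A selection that leaves libraries aside can be read in those libraries. Applied to the libraries numbered 1 alone, the rule chose 67 genes, of which 39 are among the 65. In the libraries numbered 2, which had no part in that choice, 65 of the 67 were lower at DT2 than in WW, 62 lower at DT3 than at DT2, and all 67 lower at DT4 than at DT3. By any amount, 34.6%, 37.2% and 50.9% of tested genes were lower there. Of the 67 genes 60 were lower at all 3 steps, against 9.13% of tested genes, and 23 met the full rule again, against 0.306%. Their median steps in the libraries numbered 2 were -0.68, -1.02 and -2.36, where those of all tested genes were 0.12, 0.11 and -0.02. Shares here and in the reverse selection are over all 22216 tested genes, of which 16353 had a WW mean that could meet the rule. The reading concerns the 67 genes so chosen, not the 65 members as a set.

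The selection was also made the other way round. The libraries numbered 2 alone chose 68 genes, of which 41 are among the 65. In the libraries numbered 1, 64 were lower at the first step, 66 at the second and 62 at the last, where 33.7%, 38.9% and 50.7% of tested genes were lower. All 3 steps went down in 56 of the 68 genes, against 8.86% of tested genes. The full rule was met by 23, against 0.302%, but these are by definition the same 23 genes as in the first selection. That count is therefore no second result. The median steps of the 68 genes in the libraries numbered 1 were -0.90, -1.79 and -0.77, where those of all tested genes were 0.14, 0.13 and -0.01. The 23 genes chosen in both series of libraries are all among the 65, but the rule itself sets this. A step that is large enough in each series is also large enough in the mean of both. Of the 65 members, 8 were chosen in neither series. The numbers of the libraries come from the column names, and nothing in the labels ties equal numbers to each other.

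The 2 libraries of DT3 stood apart in the member genes. DT3 library 1 lay below DT3 library 2 in 63 of 65 members, against 38.8% of all tested genes, and the median difference was -0.88 on the log2(TPM + 1) scale in the members and 0.09 over all tested genes. The same held in 789 of 904 other genes whose total drop was 2.1 or more on the log2 scale, with a median of -0.44. Among the 229 genes that rose at each step, library 1 was the higher one in 211, with a median of 0.64. At DT4 library 1 lay above library 2 in 46 of 65 members, or 70.8%, not far from the 59.9% of all tested genes. The 904 other genes showed this order more often, in 708, or 78.3%. Of the members 30 were under 1 TPM in both DT4 libraries. The median difference at DT4 was 0.30 in the members and 0.10 over all tested genes. It was 0.50 in the 904 other genes with a large drop and -0.23 in the rising genes.

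In WW and DT2 the libraries differed less. WW library 1 was the lower one in 46 of 65 members, by a median of -0.13, where 41.1% of tested genes were lower. DT2 library 1 was the lower one in 44 members, by a median of -0.22, where 38.2% of tested genes were lower. The higher library was library 1 in 19 members in WW (57.3% of tested genes), in 21 at DT2 (60.7%) and in 2 at DT3 (60.1%). By library, the median member level was 7.24 and 12.8 TPM at DT3, and 1.61 and 0.83 TPM at DT4. Without DT3 library 1 the rule finds 54 genes, 45 of them members, and without DT3 library 2 it finds 66, of which 49 are members. The labels name no batch, and what set these libraries apart was not tested.

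**Figure D3:**
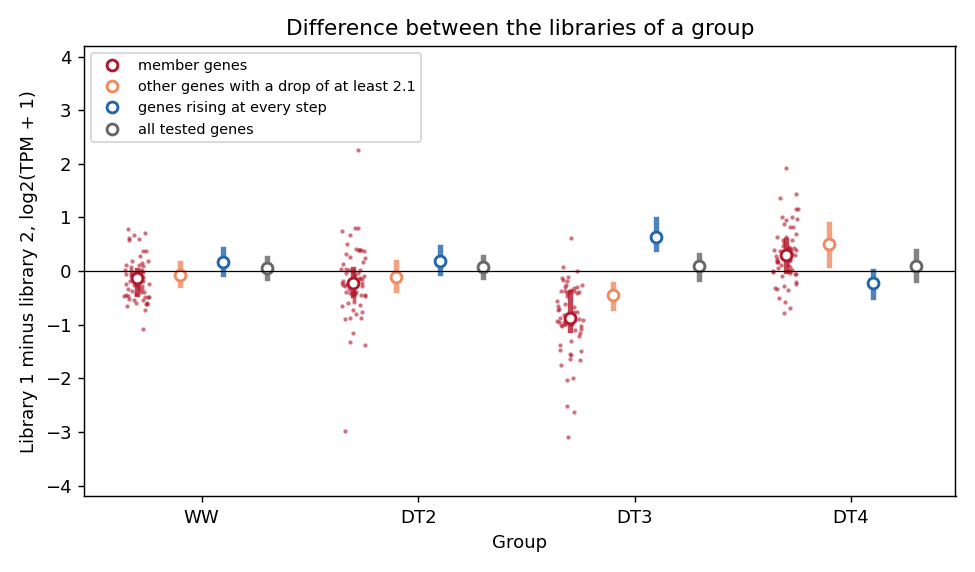
Library 1 minus library 2 of each group in log2(TPM + 1), for the 65 member genes (red, small points are single genes), 904 other genes with a total drop of at least 2.1 (orange), 229 genes rising at each step (blue) and all 22216 tested genes (grey). Open circles are medians and bars run from the first to the third quartile; at DT3 the medians are -0.88, -0.44, 0.64 and 0.09 in that order.

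The level of a gene was summed over its transcripts. Of the member genes 38 have 1 transcript in the table and 27 have several, up to 7, and the rule used their sum but not the split among them. In 21 members 2 or more transcripts had at least 1 TPM in WW. Of their 55 such transcripts 48 declined in the mean at each step, and in 16 of the 21 genes all of them did, which the choice by the summed level largely sets. The leading transcript carried a median of 84.9% of its gene in WW, and its share at DT3 differed from that in WW by a median of -1.49 percentage points, with a range from -13.6 to 19.7. Another transcript led in 2 of the 21 genes at DT2 and in 1 at DT3. Values of single transcripts of a gene share reads and are estimates.

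By DT4 the lead had changed in 4 of the 12 genes that still had at least 1 TPM in both libraries. They were named after their values were seen. In GRMZM2G001421 transcript T01 carried 29.8% and 0% of the gene at DT4, against 73.1% and 43.4% in WW. Transcript T03 of that gene carried 70.2% and 58.3% at DT4, against 22.3% and 42.0% in WW. The shares of both transcripts at DT4 lay outside their WW range, in a gene with 4.36 and 1.08 TPM left. The other 3 were GRMZM2G073427, GRMZM2G092497 and GRMZM2G125850. At DT4 they had 4.13 and 2.82, 7.48 and 3.60, and 5.03 and 6.49 TPM left, in that order. In GRMZM2G073427 the lead was narrow, with T01 at 24.0% of the mean level in WW and T04 at 21.0%. Its DT4 libraries had different leaders, T02 at 1.47 TPM in library 1 and T06 at 1.37 TPM in library 2. In GRMZM2G125850 transcript T03 carried 55.0% of the mean level at DT4, against 36.8% in WW, and in GRMZM2G092497 transcript T04 carried 69.8% at DT4, against 37.5% in WW. The most abundant member, GRMZM2G046284, kept its leading transcript, at 95.3% and 94.0% of the gene at DT4 and 97.1% and 97.7% in WW.

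The circRNAs were read in libraries that the rule did not use. The maize table holds 2174 circRNAs, and 3 of them came from member genes, each from another gene and each exonic. Thus 4.62% of the member genes were listed as a host, against 5.44% of all tested genes. The authors deposited them as a scaled signal. Within a library every value is a whole number of equal steps, and what a step stands for is not stated in the sources used here. The libraries summed to 15260 to 23926 steps. A circRNA listed in 1 library of a group is listed in the other too, and the smallest listed value is 2 steps, so that an unlisted circRNA may lie below what was listed. Against WW, the median log2 change of circRNAs listed in both groups was 0.28 at DT2, while it reached 0.46 at DT3 and 0.60 at DT4. The tests below call 0% of 697 circRNAs lower at DT2 than in WW, 0% of 668 lower at DT3 and 0.3% of 666 lower at DT4 (limma). In numbers these were 0, 0 and 2 lower, and 0, 2 and 36 were higher. With libraries rescaled to the same sum, 1, 2 and 13 were lower and 0, 2 and 12 higher, so the balance at DT4 depended on the scaling. At DT4, leaving out any 1 of the DT2, DT3 or DT4 libraries gave 0 lower and 0 to 3 higher, and leaving out WW library 2 gave 1 lower and 23 higher. At an unadjusted p under 0.05 the deposited values gave 7, 13 and 19 lower. The alternative that enters unlisted circRNAs at a pseudocount, over all 2174, called 256, 289 and 301 lower. Of the 954 circRNAs listed in WW, 257, 286 and 288 were not listed at DT2, DT3 and DT4. An unlisted group enters at the same value in both libraries, with no spread, so such calls can follow from the listing alone.

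The circRNA of GRMZM2G348452 lies on the plus strand of chromosome 1, from 207755030 to 207755301 as deposited; the submitters' processing notes name the maize build B73 RefGen_v3. Its signal was 51.7 and 29.4 at DT2, against 194 and 154 in WW, which is 4 and 2 steps against 14 and 11. It was not listed at DT3 or DT4. The groups did not overlap, and the log2 change from WW to DT2 was -2.15 (SE 0.53), but it did not pass the threshold (limma adjusted p = 0.239). Of 11 alternatives 2 gave a call, and over all 11 the adjusted p ran from 0.00183 to 0.749. The linear RNA of the host was 48.1 and 42.7 TPM at DT2, against 136 and 128 TPM in WW, then 2.08 and 7.68 TPM at DT3 and 1.93 and 0.97 TPM at DT4. The host's fitted change from WW to DT2 was -1.52 (SE 0.42). Of the 954 circRNAs listed in WW 286 were not listed at DT3, or 29.98%.

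The circRNA of GRMZM2G001421, on the plus strand of chromosome 8 from 26354387 to 26354963, was listed again at DT4. Its signal was 83.4 and 64.5 at DT4, against 83.3 and 168 in WW, which is 6 and 5 steps against 6 and 12. At DT2 it was 90.6 and 132, and at DT3 it was not listed. The libraries overlapped with WW at both levels. The log2 change was -0.69 (SE 0.53, limma adjusted p = 0.407) at DT4 and -0.11 (SE 0.53, adjusted p = 0.957) at DT2. With libraries rescaled to the same sum, the change at DT4 was -1.20 (SE 0.59, limma adjusted p = 0.254), so its size depended on the scaling. Over 11 alternatives each, the adjusted p at DT4 was 0.208 to 0.917 and that at DT2 0.890 to 1. The host had 4.36 and 1.08 TPM at DT4, against 63.9 and 65.3 TPM in WW, a fitted change of -4.30 (SE 0.44). At DT2 it had 32.5 and 43.6 TPM, and at DT3 14.4 and 27.3 TPM. On the deposited scale, the mean circRNA signal at DT4 was thus 58.8% of WW while the host stood at 4.21% in TPM, which is another scale. This difference was not tested, because the host's values chose the gene.

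The circRNA of GRMZM2G046284 lies on the plus strand of chromosome 10, from 10199500 to 10199688. It had a signal of 59.0 and 54.2 at DT3, against 111 and 84.0 in WW, or 4 and 4 steps against 8 and 6, and it was not listed at DT2 or DT4. The groups did not overlap, and the log2 change at DT3 was -0.77 (SE 0.50, limma adjusted p = 0.440; 0.0129 to 0.798 over 11 alternatives). The host had 3218 and 4190.0 TPM at DT3, against 9487 and 11408 TPM in WW.

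**Figure D4:**
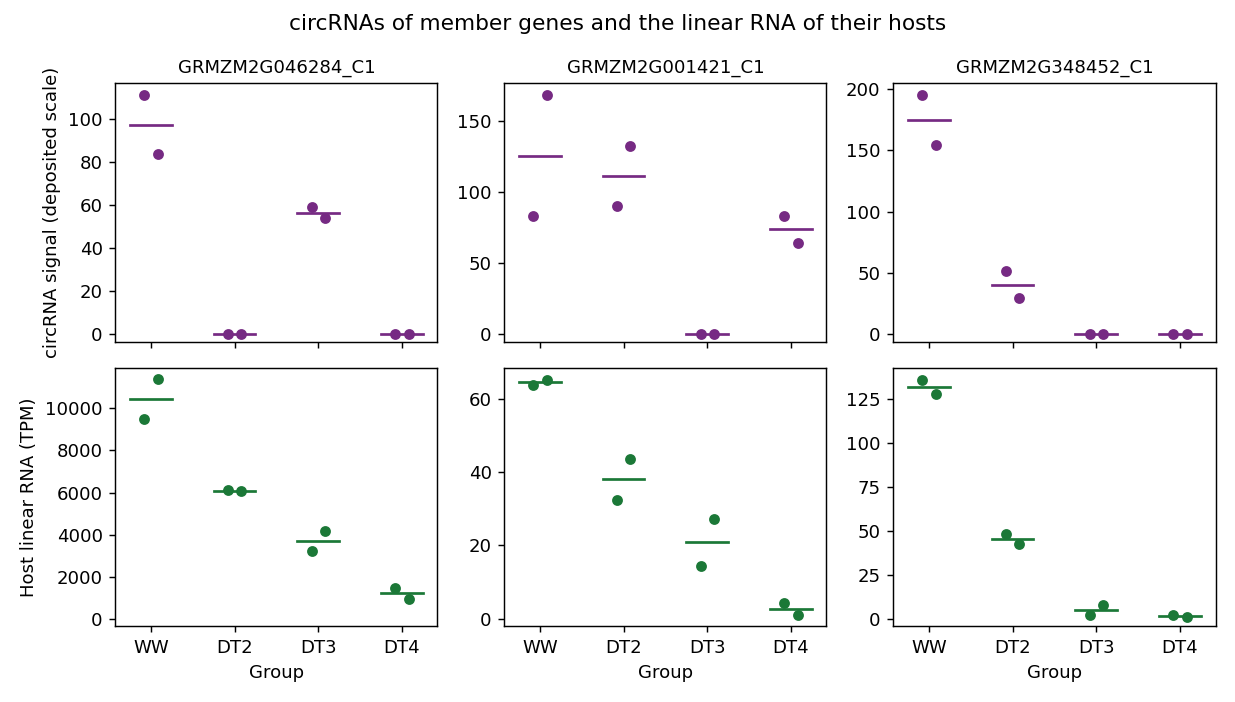
Signal of the 3 circRNAs that come from member genes (top, deposited scale) and TPM of the linear RNA of their hosts (bottom) in WW, DT2, DT3 and DT4; points are single libraries and lines the mean of 2. The circRNA of GRMZM2G001421 stands at 83.4 and 64.5 at DT4, where its host has 4.36 and 1.08 TPM, and points at 0 are circRNAs that were not listed.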

How the data were processed

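Linear RNA of maize was deposited as TPM per transcript (63235 transcripts); the authors' Arabidopsis table of the same kind names this unit in its header, and the maize values were read as the same unit, so no sequencing depth is kept. Signal per circRNA was deposited after scaling per library by the authors; all values were whole multiples of a library's step within 0.02. Lengths in bp were deposited beside them. BWA, RSEM and edgeR are the tools, and B73 RefGen_v3 the maize build, per the submitters' processing notes, which give no version or role. Reads were 150 bp, per the labels. Libraries were assigned to groups by column name; titles carry letters and columns numbers, which were not matched.

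Genes that reached 1 TPM in 2 libraries or more (22216, all 65 members among them) were fitted as log2(TPM + 1) over the 8 linear libraries with limma 3.58.1 under R 4.3.3 (trend, two-sided, Benjamini-Hochberg over all genes, called under an adjusted p of 0.05). circRNAs listed in both groups were tested as log2 signal with limma's moderated variance over all groups that list them. Tables and figures used Python 3.11.15, pandas 2.3.3 and matplotlib 3.10.9. The fits were also run on simulated data with planted changes; the outcome is not given here, and no result rests on it. The correlation between the libraries of a group was 0.966 to 0.978, and none were identical.

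The members, tests and lists were chosen with earlier results of these data known. Genes were named by a fixed rule: the first 2 by total drop and by WW level, 2 on each side of the threshold, and circRNA hosts; others are said to be picked by value. The planned pathway lists and Arabidopsis matches need maize names or proteins and were not run. The trimmed mean (30% of ratios and 5% of levels trimmed at each end) was computed without weights.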

Additional observations from a re-analysis of the deposited data

How the results depend on the processing

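The rule gave 65 genes, and from 44 to 82 under other pseudocounts, a step of 0.8, the most abundant transcript or the filter. A step of 0.6 gave 107 and rescaled libraries 127. Leaving out 1 library gave 54 to 76. Genes called lower numbered 49 at DT2 against WW (28 with a pseudocount of 0.1, 29 without a filter), 279 at DT3 against DT2 (162 and 33), 4344 at DT4 against DT3 and 4101 at DT4 against WW. Leaving out 1 library gave 5 to 48, 10 to 369, 2322 to 5015 and 3135 to 4356. Rescaling moved the median gene at DT4 against WW to 0.01, from 0.27, and the calls to 5507 lower and 5628 higher, against 4101 and 7737 as deposited.

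The library numbers were entered as a replicate block. Correlations of library 1 minus library 2 between groups were -0.11 to 0.11, so the numbers were not taken to pair libraries. With the block 37, 208, 4380 and 4072 genes were lower.

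The circRNA of GRMZM2G348452 was called at DT2 with a pseudocount over all circRNAs (-1.60, limma adjusted p = 0.00183) and after rescaling to the same sum (-2.35, 0.0487), and not in the other 9 alternatives (up to 0.749). That of GRMZM2G046284 was called at DT3 with the pseudocount (-0.57, 0.0129) and in none of the other 10 (up to 0.798). With the pseudocount, the groups in which they are unlisted enter with no spread. Their SEs were then 0.188 and 0.120, against 0.528 and 0.505 in the main fit. After rescaling to the same sum, the 3 circRNAs shared 1 SE of 0.590, larger than the 0.505 to 0.532 of the main fit. The call after rescaling thus came with a larger SE. The cause of the differing calls was not tested. Leaving out 1 library gave -2.56 to -1.74 for GRMZM2G348452 at DT2 and -0.97 to -0.57 for GRMZM2G046284 at DT3. For GRMZM2G001421 it gave -1.20 to -0.18 at DT4 and -0.62 to 0.39 at DT2. The sign at DT2 turned without WW replicate 2 or DT2 replicate 1. With the block all 4 kept their direction and no call was made. Counts of 2 to 14 steps limit the circRNA values. Pathway lists and Arabidopsis matches were not run.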

Other observations

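Among the 690 tested genes that made 2 of the 3 steps, 488 missed the first step, and 287 of those were lower at DT2 than in WW by less than 0.7 on the log2 scale, while 201 were higher there. Of the 106 that missed the middle step 48 were lower and 58 higher at DT3 than at DT2. Of the 96 that missed the last step 39 were lower and 51 higher at DT4 than at DT3. Each step was also counted by itself, with genes that made further such steps included. A step of this size was made by 611 genes at DT2 against WW, by 1369 at DT3 against DT2 and by 4416 at DT4 against DT3. Exactly 1 such step was made by 4821 tested genes.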
